A study of Mus musculus with 5 samples.

Results

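Albumin, alpha-fetoprotein and the other plasma carrier proteins bind small or insoluble cargo and move it through blood or, for 1 of them, through the cytoplasm of liver cells. The genes described here were Alb, Afp, Apoa1, Ahsg, Ttr, Trf, Rbp4, Gc and Fabp1, 9 of the 4743 genes in the deposited tables, and each of the 9 had a value in every table. They were chosen by name, as carriers of plasma and hepatocytes, after their values in the same libraries had been seen. Their differences between the groups are therefore given as a description, without a test.

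RNA sequencing was done on muscle tissue from the forelimbs of C57BL/6 mouse embryos at stage E15.5, the labels' name for the day of gestation. The groups were 3 Noggin-deficient samples and 2 wild type control samples, which shared strain, stage and tissue and differed in the genotype label. Noggin is an extracellular antagonist that captures bone morphogenetic proteins before they reach their receptors. The labels name neither the allele nor the sex of the embryos, and do not say whether a sample was 1 embryo or a pool, so the spread between samples may be technical.

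Expression is given by the authors as a normalized signal whose unit is not named. A value is therefore compared between libraries for the same gene, and levels of different genes are not ranked against each other. Summed over all listed genes, the signal of the Noggin-deficient libraries was between 92210 and 93695, and that of the wild type was 100792 and 102783. The number of reads behind them is unknown. Nog itself stood at 2 and 1.99 in the wild type and at 0.49, 0.42 and 0.42 with Noggin deficiency, and the labels do not say which part of the gene is altered. Of 24 skeletal muscle genes looked for, 16 were in the tables and 8 were not analysed here. The 16 summed to between 4815 and 5053 in the Noggin-deficient and between 6948 and 7077 in the wild type libraries, so muscle genes were strongly present in both groups.

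In the embryo most plasma proteins are made by the hepatocytes of the fetal liver, and several of them also by the visceral endoderm of the yolk sac. Alb, Afp and Gc belong to the albumin family, whose members carry fatty acids, hormones and vitamin D in blood. Transferrin, transthyretin and retinol-binding protein carry iron, thyroid hormone and vitamin A. Fetal skeletal muscle is not known as a main source of albumin, whereas transferrin and retinol-binding protein are also made outside the liver, in glia and in fat among other tissues.

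Start sites of 7 of the 9 genes, with 2 start sites for Rbp4, were taken from the RefSeq promoter table (build GRCm38.p6). Trf and Ttr were not searched, and the counts below do not cover them. The 200 bases before each start were searched on both strands for 4 sequence motifs. They were GTTAAT, which is 1 side of the palindrome bound by the hepatocyte homeodomain factor HNF1, the forkhead motif TGTTTNC, the TATA box TATAAA and the CCAAT box. No match overlapped another in these windows. GTTAAT was found before Alb, Afp, Gc and Fabp1, in 4 of 8 windows, and in 5.06% of the 32851 windows of all genes. The windows of these 4 genes are shown because they share that motif, with each GTTAAT and TATAAA in capitals, 5′ to 3′ on the strand of the gene.
Alb: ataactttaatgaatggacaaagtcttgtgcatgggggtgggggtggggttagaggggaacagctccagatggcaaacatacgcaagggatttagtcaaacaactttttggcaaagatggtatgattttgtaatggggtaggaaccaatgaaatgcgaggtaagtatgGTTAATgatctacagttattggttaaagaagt
Afp: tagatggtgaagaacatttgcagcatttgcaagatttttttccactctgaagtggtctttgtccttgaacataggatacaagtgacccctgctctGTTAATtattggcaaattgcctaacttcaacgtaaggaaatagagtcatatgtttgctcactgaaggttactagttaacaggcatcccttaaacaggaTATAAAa
Gc: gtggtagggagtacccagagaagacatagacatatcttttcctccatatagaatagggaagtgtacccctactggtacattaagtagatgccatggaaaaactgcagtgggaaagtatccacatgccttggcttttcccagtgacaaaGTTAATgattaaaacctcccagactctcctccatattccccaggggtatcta
Fabp1: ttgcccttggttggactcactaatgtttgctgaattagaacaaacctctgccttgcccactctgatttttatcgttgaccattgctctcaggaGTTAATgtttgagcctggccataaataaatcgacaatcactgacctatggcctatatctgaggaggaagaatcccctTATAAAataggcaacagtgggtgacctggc
They lie at chr5:90460670-90460869 (plus strand) for Alb, chr5:90490514-90490713 (plus strand) for Afp, chr5:89457899-89458098 (minus strand) for Gc and chr6:71199679-71199878 (plus strand) for Fabp1. The GTTAAT match begins 32 bases before the start of Alb, 52 before that of Gc, 105 before that of Afp and 107 before that of Fabp1. TATAAA was found before Afp, before Fabp1 and at 1 of the start sites of Rbp4, in 3 of 8 windows and in 9.96% of all windows. TGTTTNC was found before Alb, Afp, Fabp1, Apoa1 and Ahsg, in 5 of 8 windows against 14.1% of all, and CCAAT in 3 of 8 against 29.3%. These matches describe the letters in the windows and do not show that a factor binds there.

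Alb, Afp and Gc, of the albumin family, had values near 0 or at 0 in the wild type libraries and higher ones in all Noggin-deficient libraries. Alb, the gene of albumin, which carries fatty acids, bilirubin and hormones, had values of 0.39 and 0.37 in the wild type libraries and of 40.24, 39.22 and 39.11 in the Noggin-deficient libraries. The means were 0.38 ± 0.0141 (SD, n = 2) and 39.5 ± 0.623 (SD, n = 3), a 104-fold difference. Both wild type libraries were at nearly the same low value, and among the Noggin-deficient libraries the highest was 1.03 times the lowest.

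Afp, the gene of alpha-fetoprotein, the relative of albumin that predominates in fetal plasma, had values of 0.52 and 0.53 in the wild type and of 29.96, 29.01 and 30.46 in the Noggin-deficient libraries. The difference was 56.8-fold, and no library of either group came near the other group. Gc encodes the vitamin D-binding protein. It was listed at 0 in both wild type libraries and at 1.16, 1.01 and 0.93 in the Noggin-deficient libraries, so no fold is given for it.

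Apoa1 encodes apolipoprotein A-I, the main protein of high-density lipoprotein. Its wild type values were 0.39 and 0.18, and its Noggin-deficient values 9.96, 10.69 and 10.44. The 36.4-fold difference of the means was 57.6-fold without wild type replicate 1 and 26.6-fold without wild type replicate 2, since those 2 low values differed from each other. The groups were far apart with either of them left out.

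Ahsg encodes fetuin-A, a plasma glycoprotein that binds calcium phosphate and keeps it in solution. It was listed at 0 and 0.03 in the wild type libraries and at 5.81, 6.1 and 5.23 in the Noggin-deficient libraries. All 3 Noggin-deficient libraries were high, and with a wild type value at 0 no fold is given.

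Ttr encodes transthyretin, which carries thyroxine and holds retinol-binding protein in plasma. It had the same value, 0.14, in both wild type libraries and values of 3.86, 4.31 and 3.84 in the Noggin-deficient libraries, a 28.6-fold difference. Rbp4 encodes the retinol carrier that travels bound to transthyretin. Its values were 5.81 and 4.58 in the wild type and 8.45, 7.85 and 9.4 in the Noggin-deficient libraries. The groups did not overlap, but Rbp4 was well above 0 in the wild type and the difference of the means was only 1.65-fold, between 1.47-fold and 1.87-fold with 1 library left out.

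Trf encodes transferrin, which carries iron to the transferrin receptor of dividing and erythroid cells. It was also present in the wild type, at 7.35 and 7.42, and stood at 19.97, 20.13 and 19.19 in the Noggin-deficient libraries. The difference of the means was 2.68-fold, and in signal units it amounted to 12.4, from 7.39 ± 0.0495 (SD, n = 2) to 19.8 ± 0.503 (SD, n = 3).

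Fabp1, the fatty acid binding protein of liver and gut, acts inside cells and is not a plasma carrier. It was listed at 0 in both wild type libraries. Its Noggin-deficient values were 0.76, 1.4 and 1.31, with replicate 1 well below the other two. In bulk tissue, more cells of a type and more RNA per cell cannot be told apart for any of these genes.

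**Figure D1:**
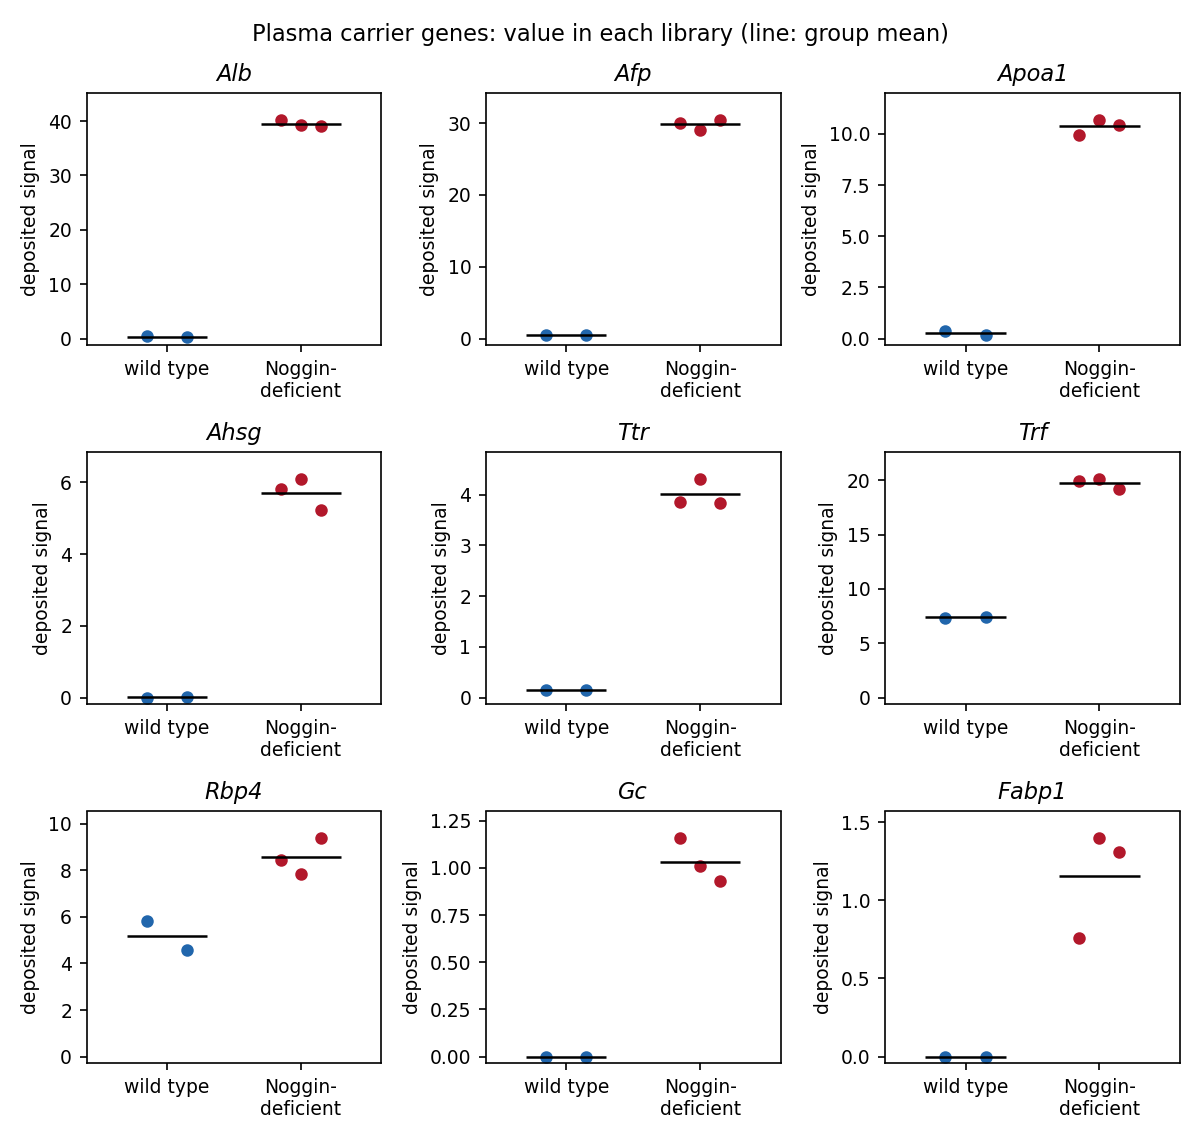
Deposited signal (linear axis from 0) of the 9 plasma carrier genes in each library, 2 wild type (blue) and 3 Noggin-deficient (red) points per gene, with a line at each group mean. All red points lie above the blue points in each panel, and only Trf and Rbp4 have wild type values far from the bottom of their panel.

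For 9 of the 9 genes the Noggin-deficient libraries lay above both wild type libraries. Among all 4743 listed genes, 98.2% had groups that did not overlap, and 41.2% were not overlapping and higher in the Noggin-deficient libraries. The tables hold genes that differ between these groups almost without exception, and the members were chosen on the same values, so nothing is read from their count. Each of the 9 passed the filter on low values (at least 0.5 in at least 2 libraries), but 6 of them, all except Afp, Trf and Rbp4, were under 0.5 in both wild type libraries and passed through their Noggin-deficient values.

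On the log2(value + 0.25) scale, which understates the difference of low genes, the members spanned most of the range of rises in the tables. Alb ranked first with a log2 difference of 5.98 and Afp second with 5.28. Ahsg followed at rank 3 (4.49), Apoa1 at rank 5 (4.34) and Ttr at rank 12 (3.45). Fabp1 (2.46) and Gc (2.36) ranked 33 and 37, Trf (1.39) ranked 87 and Rbp4 (0.70) ranked 379. Alb held rank 1 under the 11 other settings tried, while Rbp4 ranged from rank 182 to rank 1091.

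The value added before taking logs mattered for the genes with wild type values near 0. With 1 and with 0.1 in place of 0.25, the log2 difference was 1.02 and 3.50 for Gc, 1.10 and 3.61 for Fabp1, 2.72 and 5.67 for Ahsg, and 2.13 and 4.09 for Ttr. That of Afp was 4.34 and 5.58, so that Ahsg passed Afp with 0.1, and the order of the genes below Alb is not firm. The log2 difference of Rbp4 was 0.43 after a trend on transcript length was removed.

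**Figure D2:**
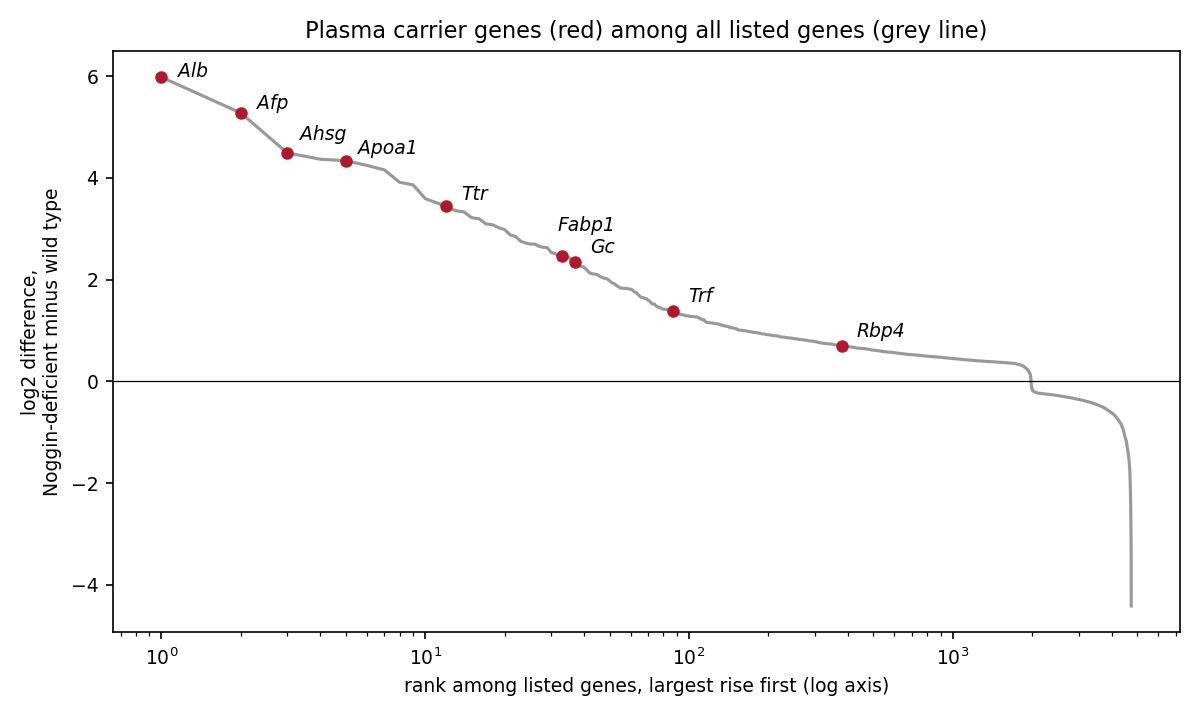
Log2 difference, Noggin-deficient minus wild type, of all 4743 listed genes (grey line) against rank with the largest rise first (log axis), and the 9 plasma carrier genes in red. Alb and Afp head the ranking, and Rbp4, at rank 379 with a log2 difference of 0.70, lies lowest of the 9.

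Within a library, the other carriers stood in different proportion to Alb in the groups. The ratio of Afp to Alb was 1.33 and 1.43 in the wild type and between 0.740 and 0.779 in the Noggin-deficient libraries. That of Apoa1 to Alb went from 1 and 0.486 to between 0.248 and 0.273, and that of Ttr from 0.359 and 0.378 to between 0.096 and 0.11. Each group kept a narrow range of its own for Afp and Ttr, and the ratios rest on Alb values of 0.37 and 0.39 in the wild type, which carry 2 decimals.

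For Trf and Rbp4 the change of proportion was much larger. The ratio of Trf to Alb was 18.8 and 20.1 in the wild type and between 0.491 and 0.513 in the Noggin-deficient libraries. That of Rbp4 to Alb went from 14.9 and 12.4 to between 0.2 and 0.24. Only the change of a ratio between the groups is read, because the unit is not named. The 6 genes above 0 in every library thus did not differ by a common factor, and of these Trf and Rbp4 had the smallest folds. Ahsg, Gc and Fabp1 have no fold and are not part of this comparison.

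**Figure D3:**
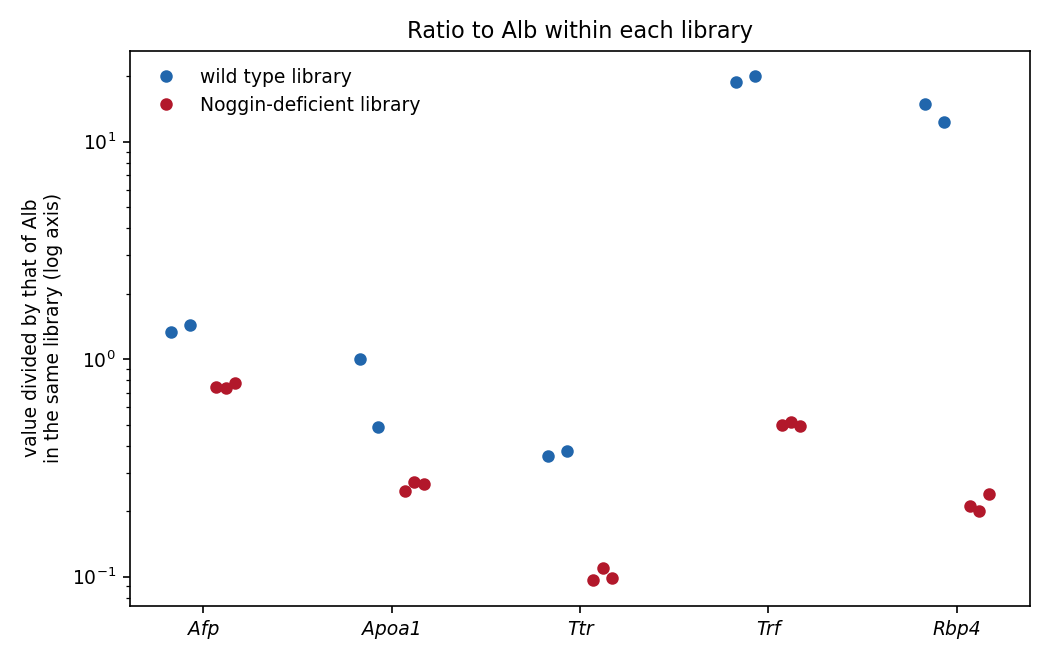
Value of Afp, Apoa1, Ttr, Trf and Rbp4 divided by the value of Alb in the same library (log axis), 2 wild type (blue) and 3 Noggin-deficient (red) points per gene; members with a 0 in any library are left out. The red points lie below the blue points for each gene, by the widest margin for Trf and Rbp4, and heights of different genes are not comparable because the unit is not named.

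The spread among the 3 Noggin-deficient libraries differed from carrier to carrier. The coefficient of variation (SD over mean) was 1.58% for Alb, 2.47% for Afp, 2.54% for Trf and 3.58% for Apoa1. It was 6.64% for Ttr, 7.75% for Ahsg, 9.12% for Rbp4 and 11.3% for Gc. Fabp1 varied most, at 30.0%.

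Set beside the other listed genes whose Noggin-deficient mean lay within 2-fold of theirs, Alb and Afp were ordinary. The median coefficient was 2.31% over the 367 genes of a level like that of Alb, and 52.3% of the 482 genes of a level like that of Afp varied less than Afp. Rbp4 and Fabp1 varied more than most, since 94.5% and 98.9% of their like-level genes varied less. No library was highest for every carrier. Replicate 2 was highest for Apoa1, Ahsg, Ttr, Trf and Fabp1, replicate 1 for Alb and Gc, and replicate 3 for Afp and Rbp4. Added up, the 9 values gave 120.2, 119.7 and 119.9 with Noggin deficiency and 14.6 and 13.3 in the wild type, where Trf and Rbp4 made up most of the sum.

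**Figure D4:**
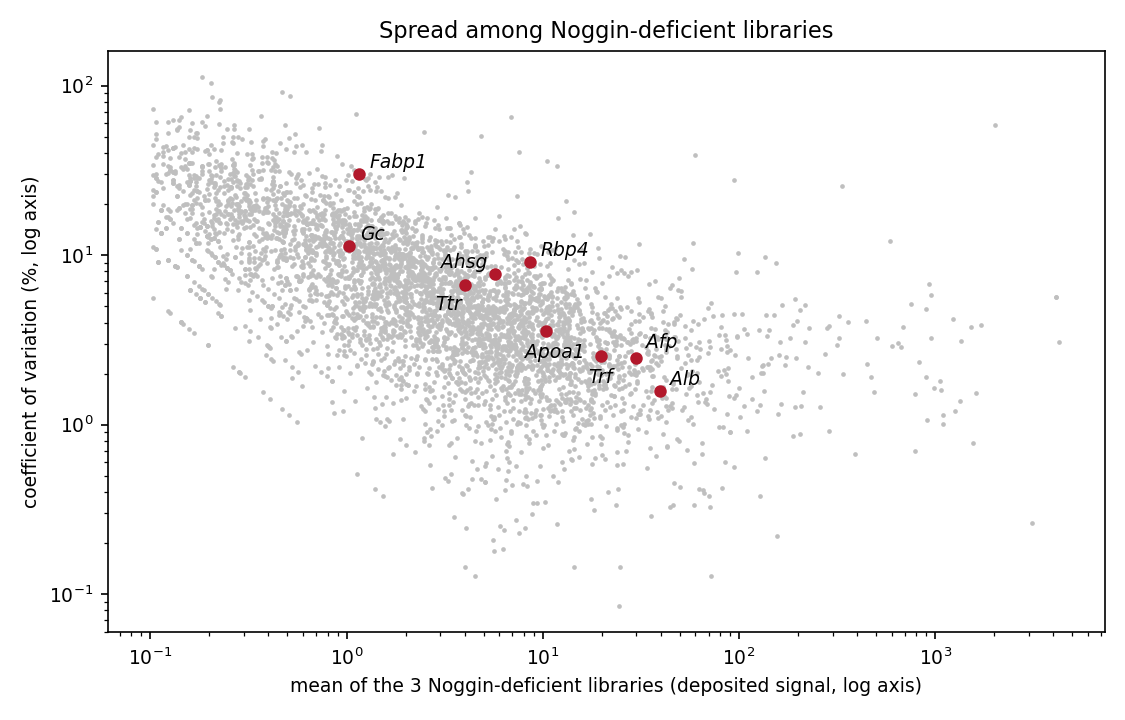
Coefficient of variation among the 3 Noggin-deficient libraries (percent, log axis) against their mean (deposited signal, log axis) for the listed genes with a mean above 0.1 and a variation above 0 (grey) and for the plasma carrier genes (red). The carriers lie among the grey points, with Fabp1 at 30.0% and Rbp4 at 9.12% near the upper edge of the grey points.

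Other genes of plasma carriage and of hepatocytes were examined as 18 gene lists, which were chosen with results of these libraries known. Over the whole table limma called 3836 of 3913 tested genes at an adjusted p under 0.05, which is 98.0%, with 37.9% higher and 60.1% lower in the Noggin-deficient libraries and a median log2 difference of -0.28. Of the calls 38.7% were higher, and 54.5% under median-of-ratios scaling. A call therefore says little about a list, and its direction and size are described instead. Where a setting of the scaling changed a list's direction, this is said beside it.

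Of 24 further plasma carriers, 15 were in the tables, and of 11 tested 9 were higher and 2 lower, with a median log2 difference of 1.41. Serpina6, the carrier of corticosteroids, was listed at 0.02 and 0 in the wild type and at 4.59, 4.69 and 4.78 in the Noggin-deficient libraries. Orm1, an acute-phase carrier of the orosomucoid family, went the other way, from 16.59 and 16.93 to between 1.02 and 1.11. Plasma carriers thus stood on both sides, with Orm1 at rank 4739 of the 4743 genes ordered by rise.

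The apolipoprotein list had 10 of 22 genes in the tables, and the 7 tested were higher (median 1.08). Apoa2, of the same lipoprotein particle as Apoa1, was at 0.23 and 0.16 in the wild type and at 3.99, 3.31 and 4.41 in the Noggin-deficient libraries, a 20.0-fold difference. Apoe, which many tissues make, was at 84.15 and 87.91 against 124.6, 132.4 and 124.2, and was picked here after its values were seen. Apolipoproteins with wild type values near 0 and those with high wild type values both stood higher.

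Hepatocyte genes of clotting and protease inhibition stood higher, like the carriers. Of 24, 21 were in the tables, and the 21 had a positive difference, against 41.7% of all 4743 listed genes. The 15 tested were higher (median 2.66). The values of the 21 summed to between 34.1 and 35.7 in the Noggin-deficient and between 5.86 and 6.04 in the wild type libraries. In the wild type, 6 of the 21 were listed at 0 in both libraries. Serpina1b, of the alpha-1-antitrypsin cluster, was listed at 0 in both wild type libraries and at 4.69, 5.12 and 4.94 in the others. Its near-identical neighbours of the cluster could share reads with it, so values within the cluster are uncertain.

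Of 30 hepatocyte enzymes, 12 were in the tables, 11 of these with a positive difference, against 41.7% of all listed genes. Of 3 tested 2 were higher and 1 lower (median 0.89). Arg1, a urea cycle enzyme that macrophages also make, went from 2.78 and 2.49 to 1.86, 1.84 and 1.47. The enzyme values summed to between 7.36 and 8.62 against 4.59 and 4.71.

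Transcription factors of hepatocytes did not share the direction of the carriers. Of 20, 7 were in the tables, and of 4 tested 1 was higher and 3 lower (median -0.29, and 0.02 once the trend on transcript length was taken out). Hnf4a, a nuclear receptor that drives many liver genes, stood at 0.03 and 0.01 in the wild type and at 0.2, 0.25 and 0.21 in the Noggin-deficient libraries, under the filter. Cebpb, a factor of many tissues, was lower, from 7.11 and 5.05 to between 4.11 and 4.77. Their summed values were between 11.9 and 12.5 in the Noggin-deficient and 11.8 and 13.6 in the wild type libraries. What part cells of the liver lineage had in the carrier values was not tested.

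**Figure D5:**
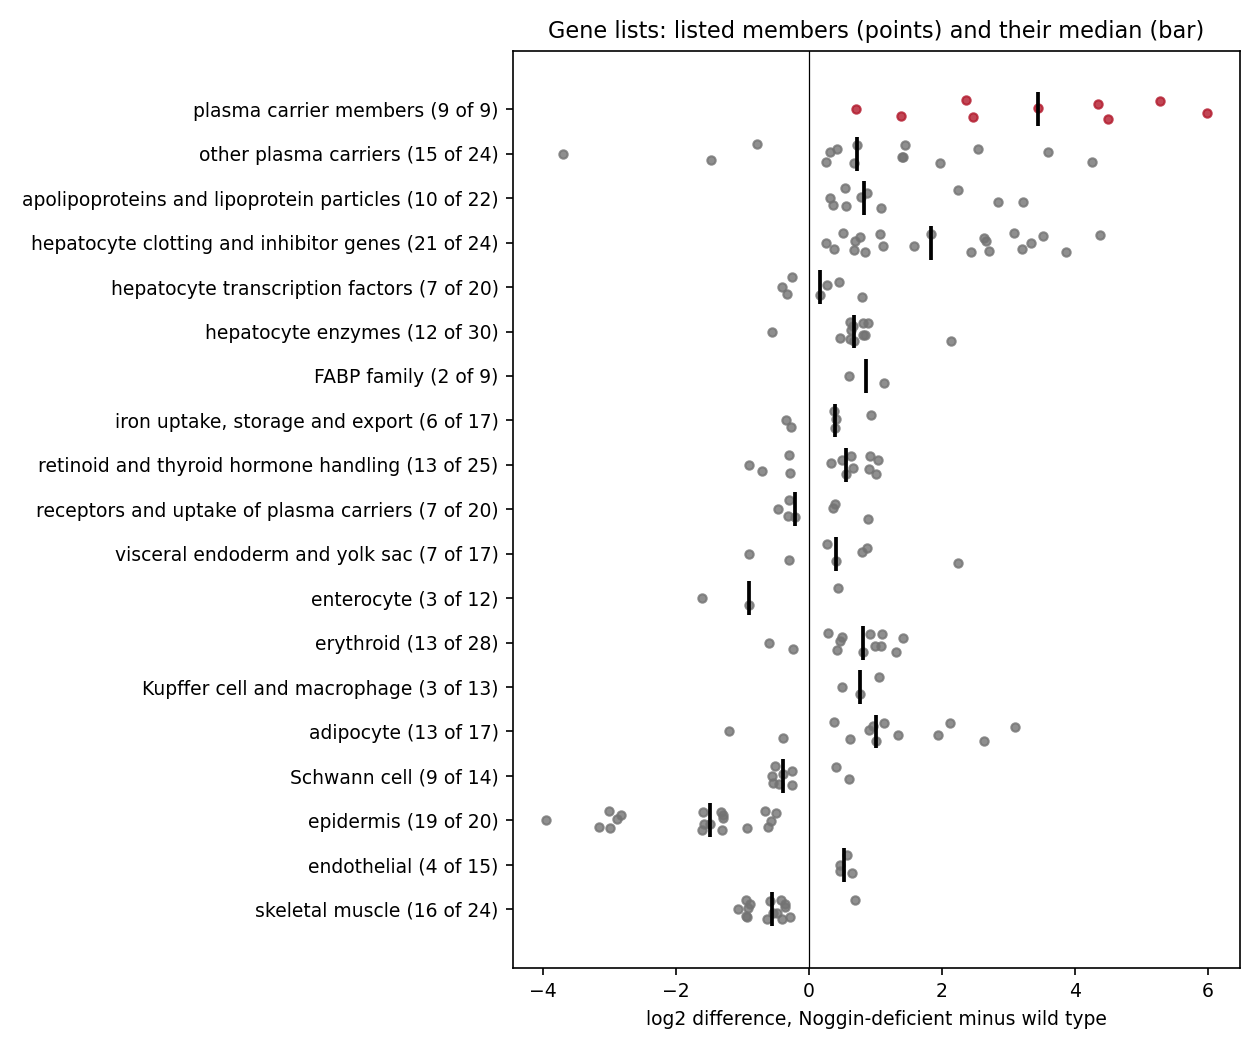
Log2 difference, Noggin-deficient minus wild type, of the listed genes of each gene list (points; plasma carriers in red) and their median (black bar), with the number in the tables and the list size beside each name. The carrier, clotting, apolipoprotein and adipocyte lists lie mostly to the right of 0, and the epidermis and skeletal muscle lists to the left.

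Genes that handle the carriers' cargo showed smaller differences. Of 17 iron genes 6 were in the tables, and of 5 tested 3 were higher and 2 lower (median 0.38, or 0.07 after removal of the length trend). Hmox1, which frees iron from haem, went from 18.74 and 18.27 to 34.41, 37.34 and 34.79. Hfe2, the hemojuvelin of muscle and liver, went from 51.62 and 50.27 to between 38.97 and 40.89. The transferrin receptor gene Tfrc was not analysed here.

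Of 25 retinoid and thyroid hormone genes 13 were in the tables, and of 12 tested 8 were higher and 4 lower (median 0.60). Dio3, which inactivates thyroid hormone, was 2.28-fold higher, from 1.23 and 1.11 to 2.72, 2.7 and 2.57. Rbp2, the intestinal cellular retinol-binding protein, was lower, from 12.28 and 11.82 to 6.18, 7.08 and 5.83. Stra6, the membrane receptor for Rbp4 and picked here after its values were seen, stood at 0.39 and 0.4 in the wild type and at 1, 0.86 and 1.03 in the Noggin-deficient libraries.

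Receptors and uptake proteins of plasma carriers were split. Of 20, 7 were in the tables, and of 6 tested 3 were higher, 2 lower and 1 not called (median 0.07, and -0.21 where low values were not filtered). Gpihbp1, which anchors lipoprotein lipase on capillaries, was 1.87-fold higher. In the FABP family 2 of 9 were in the tables, and both were higher (median 0.86). Fabp4, of fat cells and capillaries, went from 77.58 and 78.94 to 168.2, 175.8 and 170.8.

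Markers were also examined of other cells that can make these carriers, or that share tissue with those that do. Yolk sac and visceral endoderm genes, which make Afp, Ttr and Apoa1 too, had 7 of 17 in the tables, with sums of 19.5 to 21.6 in the Noggin-deficient and 20.3 and 21.7 in the wild type libraries, so that the sums overlapped. Of the 7, 5 had a positive and 2 a negative difference, and 41.7% of all listed genes had a positive one. Cited1 and Rbp2 made up most of the sums and went opposite ways, so the sums say little about the other genes. Cited1, picked here after its values were seen, went from 7.6 and 9 to between 10.48 and 11.37. Of 3 tested 2 were higher and 1 lower (median 0.41). Apom, an apolipoprotein on that list, went from 0.1 and 0.56 to 1.99, 2.46 and 2.39, and Rbp2 was lower as above. Enterocyte genes, a further source of Apoa1 and Fabp1, had 3 of 12 in the tables, summing to between 6.37 and 7.56 against 13.4 and 13.9, and both tested were lower (median -1.25). Rbp2, which is also on this list, made up most of these sums. Slc5a1, the intestinal glucose transporter, went from 1.51 and 1.58 to between 0.31 and 0.38, and Krt20 was under the filter at 0.03 and 0.07 against 0.1 to 0.21. The other genes of these lists were not analysed here. The part of such cells in the carrier values was not tested.

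Blood and macrophage genes were higher. The fetal liver is also the site where red cells form. Of 28 erythroid genes 13 were in the tables, and of 13 tested 11 were higher and 2 lower (median 0.82), with sums of 237.0 to 243.0 in the Noggin-deficient and 109.3 and 113.0 in the wild type libraries. Hbb-y, an embryonic globin gene, was 2.68-fold higher, while Sptb, of the red cell and muscle membrane skeleton, went from 2.4 and 2.49 to between 1.47 and 1.57. Of 13 Kupffer cell and macrophage genes 3 were in the tables, summing to 15.3 to 15.7 against 10.3 and 10.7, and both tested were higher (median 0.78). Cd68 made up most of these sums, at 14.5, 14.77 and 14.68 against 10.07 and 10.48, so the sums say little about the other genes. Cd5l, a secreted macrophage protein, stood at 0.77, 0.6 and 0.29 against 0.13 and 0.12. Whether blood cells had a part in the carrier values was not tested.

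Adipocytes also make Rbp4. Of 17 adipocyte genes 13 were in the tables, summing to between 366.9 and 375.2 in the Noggin-deficient libraries against 193.1 and 200.1 in the wild type. Of 10 tested, 8 were higher and 2 lower (median 1.24). Adipoq, the gene of adiponectin, was 9.75-fold higher, and Dgat2, of triglyceride synthesis, went from 37.81 and 38.86 to between 16.42 and 16.76. The part of fat cells in the difference of Rbp4 was not tested. Schwann cells, which can make transferrin, had 9 of 14 genes in the tables, summing to between 97.5 and 100.1 against 120.1 and 120.3. Of 9 tested 2 were higher and 7 lower (median -0.39). Fabp7 was 1.58-fold higher. The part of Schwann cells in the difference of Trf was not tested.

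Among the tissues that border muscle, 4 of 15 endothelial genes were in the tables, summing to between 142.6 and 146.0 against 97.0 and 99.9, and the 4 were higher (median 0.52), Cldn5 by 1.58-fold. Of 20 epidermis genes 19 were in the tables, summing to between 1403 and 1463 against 3382 and 3391, and the 19 were lower (median -1.49), Hrnr going from 22.18 and 22.65 to between 1.17 and 1.28. Of 16 tested skeletal muscle genes 15 were lower and 1 higher (median -0.56), Ckm going from 341.6 and 339.4 to between 158.5 and 167.1 and Actn3 standing 1.63-fold higher. Skin and muscle genes thus stood lower in the libraries in which the carriers stood high. Their part in the carrier values was not tested.

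Position in the genome was compared through the gene order of the RefSeq annotation of GRCm38.p6. Alb and Afp are neighbours on chromosome 5 and are followed by Afm, the gene of afamin, a further member of their family. Afm was listed at 0.02 and 0 in the wild type and at 0.05, 0.13 and 0.05 in the Noggin-deficient libraries. Afm thus stayed near 0 in both groups beside the top pair of the table. Of the 32 other genes within 2 protein-coding genes of a member, 8 were in the tables. Fetub, the relative and neighbour of Ahsg on chromosome 16, went from 0.29 and 0.42 to 0.12, 0.05 and 0.13, opposite to Ahsg. Ffar4, a fatty acid receptor beside Rbp4 on chromosome 19, stood at 0.07 and 0.06 against 0.3, 0.24 and 0.25. Afm, Fetub and Ffar4 were picked after their values were seen. Each was under the filter in every library, so their directions rest on low values.

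Likeness of profile was measured as the Euclidean distance between centred log2(value + 0.25) profiles over the 5 libraries, for the 3120 genes on none of the lists with a Noggin-deficient mean of at least 1. With 2 groups it follows mainly the size of the difference. Nearest to Alb were Rbakdn (distance 2.01), the hair keratin genes Krt84 (2.27) and Krt36 (2.88), and the neuronal and neuroendocrine genes Stmn3 (3.27) and Chgb (3.29). These distances were large, because no listed gene outside the carriers matched the log2 difference of Alb. Rbakdn was at 0.04 and 0 in the wild type and at 4.99, 4.15 and 4.56 in the Noggin-deficient libraries, and it was also the nearest to Afp, Apoa1 (0.41) and Ahsg (0.53). Krt36 was nearest to Ttr (0.32), Hcar1, a lactate receptor of fat cells, to Trf (0.16), Nrp to Rbp4 (0.14) and Irs4 to Fabp1 (0.53). Nearest to Gc was C3, the central complement component (0.24), which went from 0.85 and 0.88 to 4.98, 5.22 and 5.08.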

How the data were processed

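RNA sequencing of mouse forelimb muscle tissue gave 1 deposited table per sample. The values are a non-negative signal that the authors normalized in a unit named in neither the tables nor the labels. Per the submitters' processing notes, the mouse build mm9, the aligner STAR 2.4.2a and DESeq2 were used, with no role stated. The labels' protocols name a stranded mRNA library kit. The counter, the annotation, the normalization and the rule by which genes entered the tables are given by no label or header. Of all values, 1 had more than 2 decimals.

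The whole table was fitted with limma 3.58.1 in R 4.3.3 (moderated test with an intensity trend, log2(value + 0.25), no covariate). The filter kept 3913 genes that reached 0.5 in 2 or more libraries and left out 830. A Benjamini-Hochberg adjusted p under 0.05 was a call. The fit was tested on simulated data. The pseudocount and the filter follow an earlier analysis. Folds are ratios of group means and SDs are between libraries. The members and lists were chosen with earlier results of these data known. Besides the members, the rule for named genes took the largest rise and fall of each list and the genes nearest in profile. Some of these are not reported here. Alternatives were other pseudocounts, filters, scalings, a length trend, a replicate block and single libraries left out. Promoter windows came from RefSeq.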

Additional observations from a re-analysis of the deposited data

How the results depend on the processing

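Every carrier gene kept the sign of its difference under the 11 alternatives computed for it. The members were chosen on this contrast and their groups did not overlap. Another pseudocount or a library left out could therefore not turn a sign. Nor could a scaling turn that of Gc or Fabp1, which were listed at 0 in both wild type libraries. Nothing is read from the kept signs. The log2 difference ranged from 4.88 to 6.37 for Alb, from 4.34 to 5.58 for Afp, from 3.15 to 4.82 for Apoa1, from 1.31 to 1.66 for Trf and from 0.43 to 0.96 for Rbp4. Of all genes, 1484 were called higher and 2352 lower. The lower calls fell to 1256 under median-of-ratios scaling and to 1351 with the length trend removed, which was fitted on the longest GENCODE M21 transcript of the 90.5% of genes that had one. The share of calls that were higher was 38.7%, and 54.5% and 48.8% under those settings. Median-of-ratios scaling shifted the median log2 difference of all tested genes by 0.25. With 1 library left out, the calls ranged from 1402 to 1449 higher and from 2056 to 2318 lower. With 1 wild type library left, its spread is assumed to be that of the other group. The median of the hepatocyte transcription factors turned from -0.29 to 0.16 with no filter and to 0.020 without the length trend, and that of the receptor list from 0.07 to -0.21 with no filter. The cause was not tested. With replicate number as a block, 1468 genes were higher and 2304 lower. Same-numbered samples share only a number, and their deviations correlated at -0.13 and -0.06. The depth is unknown, so a value listed at 0 sets no limit on expression.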

Other observations

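Genes listed at 0 in both wild type libraries were few. There were 57, and 50 of them had a value above 0 in each Noggin-deficient library. Of these 50, 16 were on the lists of carriers, apolipoproteins and other hepatocyte genes, which were chosen with results of these data known. A mean of at least 1 in the Noggin-deficient libraries was reached by 7 of the 50, and each of the 7 was on those lists. Beside Gc and Fabp1 they were Serpina1a (2.61 ± 0.106, SD, n = 3), Serpina1b (4.92 ± 0.216, SD, n = 3), Serpina1c (3.39 ± 0.173, SD, n = 3) and Serpina1d (2.04 ± 0.0814, SD, n = 3), of the alpha-1-antitrypsin cluster, whose copies could share reads, and Fgb (1.88 ± 0.371, SD, n = 3), of fibrinogen.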
